A study of Mus musculus with 40 samples.

Results

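The genes described here are those of the cytoplasmic ribosomal proteins, the proteins that together with ribosomal RNA build the small (40S) and the large (60S) subunit of the ribosome outside mitochondria. They were taken by symbol, as rows named Rpl or Rps with a number and at most an a, l or x after it, together with Rpsa, Rplp0, Rplp1 and Rplp2, without Rps27l and without pseudogenes. This gave 79 of the 24062 genes in the table, 30 of the small and 49 of the large subunit. RNA-Seq was performed on primary mouse embryonic fibroblasts (MEFs), which here came from 13.5 days post coitum, were at passage 3 and had a mixed C57BL/6J-129P2OlaHsd background. The cultures carried both, 1 or no intact copies of Sall2, a zinc finger transcription factor gene (WT, Het and KO), and were left untreated (control) or given 1 µM doxorubicin for 16 h. Doxorubicin is an anthracycline that blocks topoisomerase II and breaks DNA. There was 1 WT, 1 Het and 3 KO, named here WT1, Het1, KO1, KO2 and KO3. The study describes its cultures as coming from single embryos, and each number in the labels was taken as 1 embryo.

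Each ribosome holds in general a single copy of each ribosomal protein, apart from the stalk proteins, and the genes are expressed at high and coordinated levels in growing cells. Their mRNAs are short and begin with a 5′ terminal oligopyrimidine (TOP) tract, through which mTORC1 and the binding protein Larp1 set their translation. When ribosome assembly fails, free Rpl5 and Rpl11, bound to 5S RNA, hold the ubiquitin ligase Mdm2 and let p53 rise, a route by which ribosomal stress reaches the same pathway as DNA damage.

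The 9 distinct libraries held between 15560728 and 24122414 counts, and the libraries labelled KO2 and KO3 with doxorubicin were identical in all 24062 genes and were counted once, as KO2. Sall2 was at 38.1 CPM (counts scaled by TMM library size) in WT1, 24.03 CPM in Het1 and between 19.1 and 24.4 CPM in the KO control libraries, so its RNA was present in KO. Het1 and the KO3 control stood apart from the rest. The summed level of 10 interferon-stimulated genes was 2038 CPM in the Het1 control and 2267 CPM in the KO3 control, against 44.8 to 62.3 CPM in the other controls, and 1372 CPM in Het1 against 316 to 397 CPM in the others with doxorubicin. The 10 fibroblast markers were all detected, at a sum of 12519 CPM in the Het1 and 10980 CPM in the KO3 control against 47175 to 54114 CPM in the other controls, and 13663 CPM in Het1 against 34443 to 40460 CPM with doxorubicin. The 9 macrophage markers in the table summed to 658 and 472 CPM in the Het1 and KO3 controls. They summed to 742 CPM in Het1 with doxorubicin, against 76.4 to 203 CPM in the other libraries. Lyz2 had 1912, 8201 and 6419 counts in the WT1, Het1 and KO3 controls. C1qa went the other way, with 476, 299 and 132 counts, and Csf1r had 575, 901 and 505. The 5 glia and neural crest markers summed to 41.1 CPM in the Het1 control against 4.58 to 13.6 CPM in the other controls. The 6 skeletal muscle markers summed to 157 CPM there against 65.7 to 124 CPM. Des, the marker with the most counts, had 2021, 1839 and 1242 counts in the WT1, Het1 and KO3 controls. Actc1 had 47, 858 and 296 counts there, Myh3 74, 710 and 255, and Myog 9, 185 and 79. Tnnt1 and Myod1 were likewise highest in the Het1 and KO3 controls. What part these differences have in the results below was not tested. In RNA from whole cultures, fewer cells of a type and less RNA per cell cannot be told apart.

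The start sites of a few members are shown because the TOP tract that the family shares begins there. In RefSeq's table of promoters (GRCm38.p6) 59 of the 79 members had an entry. The windows below run from 15 bases before the annotated start to the first 15 bases of the transcript, 5′ to 3′ on the gene's own strand, and capitals mark a match to the pyrimidine runs CTTTC or else CTTCC or else CTCTT, of the TOP kind, or to CGGAAG on either strand, the core of sites for ETS factors. Rplp2 and Rpl15 carry the same pyrimidine run, and as described later Rplp2 was among the members that rose in WT1, KO1 and KO2 while Rpl15 was not. Rps28 and Rpl41 were among the largest increases, and Rpl5 and Rpl10 were lower with doxorubicin in each of these 3 embryos. Both decreases missed the threshold used below, and the log2 ratio of Rpl10 in WT1 was only -0.02.
Rplp2 (chr7:141447636-141447665, plus strand): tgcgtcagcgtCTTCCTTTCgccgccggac
Rpl15 (chr14:18270972-18271001, minus strand): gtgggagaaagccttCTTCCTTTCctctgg
Rps28 (chr17:33824548-33824577, minus strand): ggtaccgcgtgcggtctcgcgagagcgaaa
Rpl41 (chr10:128549154-128549183, minus strand): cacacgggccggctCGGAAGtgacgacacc
Rpl5 (chr5:107900513-107900542, plus strand): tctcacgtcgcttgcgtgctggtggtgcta
Rpl10 (chrX:74270801-74270830, plus strand): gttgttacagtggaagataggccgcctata

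Of the 70 promoter entries of members, 28 (40%) held 1 of the 3 pyrimidine runs on the sense strand within this 30-base window, against 12.9% of all 32851 entries. CGGAAG on either strand of the whole 300-base entry was present in 42 entries of members (60%) and in 16.9% of all entries. CTTCC is part of the reverse complement of CGGAAG, so an entry can count in both. Among the entries of members that rose in WT1, KO1 and KO2, 37% held a pyrimidine run and 58.7% held CGGAAG, and among those of the other members 45.8% and 62.5%. These are matches of letters, and an annotated start can lie some bases away from the start used in these cells.

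The share of all counts that fell on the 79 genes was 1.23% in WT1, 1.15% in KO1 and 1.25% in KO2 without treatment, and 2.83% in Het1 and 3.73% in KO3. With doxorubicin it was 2.14% in WT1, 1.90% in KO1, 2.32% in KO2 and 3.10% in Het1. The share was thus higher with doxorubicin in each of the 4 paired embryos, while the untreated Het1 and KO3 cultures lay above the treated WT1, KO1 and KO2. The mean with doxorubicin exceeded the mean in control by 0.325 percentage points over the 9 libraries. The balance of the subunits moved less, with 48.4% to 51.1% of the members' counts on the small subunit.

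**Figure D1:**
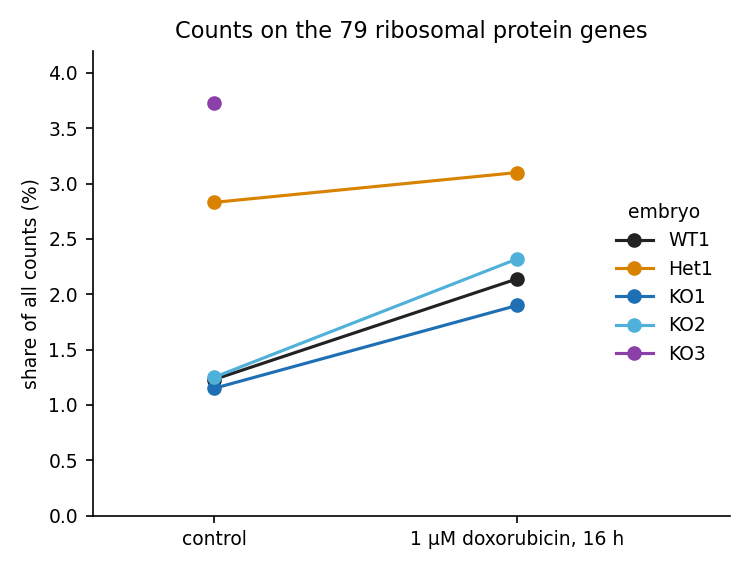
Share of all counts (%) on the 79 ribosomal protein genes, 1 point per library, with lines that join the control and doxorubicin libraries of an embryo. WT1, KO1 and KO2 start between 1.15% and 1.25% and end between 1.90% and 2.32%, while Het1 starts at 2.83% and KO3, which has a control library only, lies at 3.73%.

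Levels of single members spread over more than 3 orders of magnitude. Per kilobase of transcript, the members with the highest mean over the 9 libraries were Rplp1, an acidic protein of the stalk that recruits elongation factors, at 3093 CPM per kb, Rpl41, the smallest ribosomal protein, at 2130, and Rpl32, of the large subunit, at 1851. The lowest among the tested members were Rpl3l, a paralogue of Rpl3 known from heart and skeletal muscle, at 0.356, Rpl30 at 1.14 and Rpl29 at 2.28 CPM per kb. Rpl30 and Rpl29 are parts of every large subunit, yet they had between 7 and 22 and between 17 and 41 counts per library. Rpl26 was listed at 0 counts in all libraries and Rpl10l, a testis paralogue, had 1 count in 1 library, so both stayed untested.

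These levels followed how much of the coding sequence a gene shares with others. Many processed pseudogenes descend from ribosomal protein mRNAs, and 66 of the 79 members shared at least 1 stretch of 150 coding bases, the read length, with another annotated transcript, 42 of them over more than 50% of their stretches. The median level was 1080 CPM per kb in the 11 tested members without shared stretches, 320 in the 23 with up to 50% and 28.7 in the 42 with more than 50% (Rpl41, whose coding sequence is shorter than a read, was left out). Across these 76 members, which share libraries and counting, Spearman's rho of shared percentage and level was -0.582. How reads with several equally good positions were counted was not tested here, and levels between members are therefore uncertain. The comparisons below set each gene against itself, but the ratios were weakly related to shared sequence as well. Spearman's rho of shared percentage and log2 ratio with doxorubicin was -0.303 in WT1, -0.231 in Het1, -0.263 in KO1 and -0.257 in KO2. The part of shared sequence in these ratios was not tested.

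**Figure D2:**
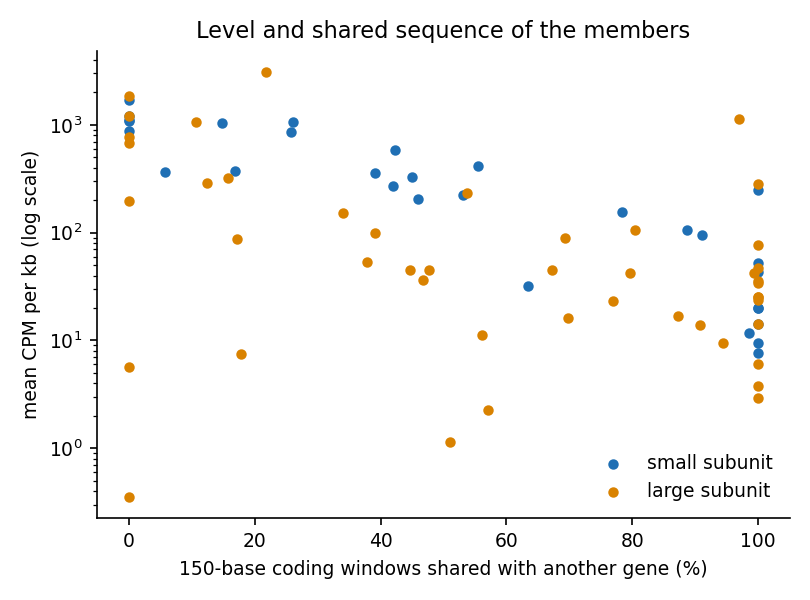
Mean CPM per kb of transcript over 9 libraries (log scale) against the percentage of 150-base coding stretches shared with another gene, 1 point per member, 76 members. Members without shared stretches have a median of 1080 CPM per kb and those with more than 50% shared a median of 28.7.

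With all 9 libraries in the fit, doxorubicin raised 1 of the 77 tested members, Rpl3l, and lowered none. Rpl3l had 0, 6, 0, 2 and 5 counts in the WT1, Het1, KO1, KO2 and KO3 controls and 16, 34, 14 and 14 counts in WT1, Het1, KO1 and KO2 with doxorubicin. The groups did not overlap, although the level stayed under 2 CPM throughout. Rpl3l did not pass the filter on low values in the comparison of control libraries and was tested here through the treated group in which it was high. Its log2 fold change was 2.996 (standard error 0.691, edgeR FDR 0.00595), and it fell short of the threshold when any of the 4 doxorubicin libraries or the WT1, Het1 or KO2 control was left out. The gene lies on chromosome 17 from 24727820 to 24736143 (GRCm38, plus strand). Of all 14883 genes tested, 21.9% passed as higher and 20.2% as lower at an FDR under 0.01, so the members passed far less often than the background in both directions. The median log2 fold change was 0.17 over the members and -0.02 over all genes. An unadjusted p under 0.05 was found for 14 members, against 61.5% of all genes. DESeq2 called 6 members higher and 1 lower, against 27.2% and 24.6% of all genes.

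Groups of control and treated libraries that did not overlap were likewise few, 4 members higher (Rpl3l, Rplp0 and Rplp2 among them, against 23% of all genes) and 2 lower (Rpl3 and Rpl5, against 24.3%). In control, the median log2 ratio of a member to WT1 was 0.83 in Het1 and 1.20 in KO3, against -0.03 in KO1 and 0.03 in KO2, and 74 of 77 members were higher in KO3 than in WT1. Rps24, on chromosome 14 like Sall2, was at 250, 880, 250, 265 and 1319 CPM in the WT1, Het1, KO1, KO2 and KO3 controls. Rps12, of the small subunit, was at 12.6, 45.6, 9.003, 11.6 and 57.1 CPM in the same order. In both genes the Het1 and KO3 controls were high and the other 3 low.

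Within the embryos whose controls were alike, most members were higher after the drug. The cultures left out, Het1 and KO3, were those with high control levels of the members. This choice was thus not independent of the values tested here. In the fit of WT1, KO1 and KO2, without the Het and KO3 cultures, 51 of 77 members rose (66.2%, against 35.4% of all genes) and none fell (against 32.4% of all genes), by edgeR at an FDR under 0.01. The median log2 fold change of the members was 0.57 and that of all genes 0.04. With the embryo as a block in addition, 56 members rose and none fell, against 39.3% and 36.3% of all genes. DESeq2 gave 53 and 0, against 35.8% and 31.9%. Other lists moved in the same fit. All 10 interferon-stimulated genes rose (median log2 fold change 2.89), from a sum of 44.8 to 62.3 CPM in these controls to 316 to 397 CPM. Of the tested markers of other cell types, 4 of 5 endothelial genes rose, 3 of 4 epithelial genes rose and 1 fell, 2 of 4 glial and neural crest genes rose and 1 fell, 1 of 9 macrophage genes rose and 4 fell, and none of 4 skeletal muscle genes passed. The sums went from 18.7 to 47.3 CPM to 37.1 to 92.4 CPM for endothelial and from 111 to 203 CPM to 76.4 to 133 CPM for macrophage markers, and 1 of 10 fibroblast markers rose and 3 fell. The part of these in the members' change was not tested. For 59 members every treated library of these embryos lay above every control (76.6%, against 39.6% of all genes), and for 4, Rpl3, Rpl5, Rpl10 and Rpl17, below (against 38.8%). Over all 4 embryos as blocks, Het1 included, 28 members rose (against 30.9% of all genes) and 1, Rpl17, fell (against 29% of all genes), so that the count of increases was near the background there. Rpl17, of the large subunit, was at 0.956, 5.94, 0.880 and 1.52 CPM in the WT1, Het1, KO1 and KO2 controls. With doxorubicin it was at 0.498, 1.24, 0.331 and 0.734 CPM, lower in each pair (log2 fold change -1.43, standard error 0.332, edgeR FDR 0.00528). These levels were 19, 145, 17 and 27 counts in control and 10, 26, 6 and 16 counts with doxorubicin. Rpl17 shares all of its coding stretches with other genes, so this decrease is limited by depth and by shared sequence.

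**Figure D3:**
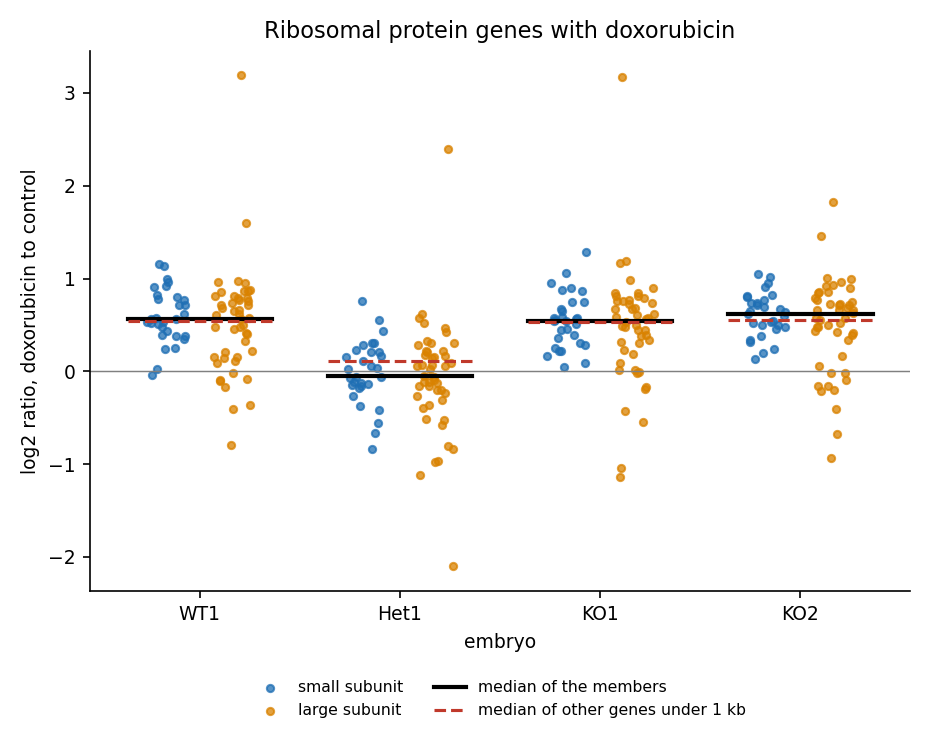
Log2 ratio of doxorubicin to control within each embryo, 1 point per tested member (77), coloured by subunit, with the median of the members (black line) and of 877 other genes with a transcript under 1 kb (dashed red line). In WT1, KO1 and KO2 the members' medians lie between 0.54 and 0.62 and the red lines between 0.53 and 0.55. In Het1 the members' median is -0.05.

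Short transcripts of other kinds moved in the same direction as the members. Of the tested members, 59 have a transcript under 1 kb, and their median log2 ratio with doxorubicin was 0.56 in WT1, 0.54 in KO1, 0.60 in KO2 and 0.03 in Het1. For 877 other genes with a principal transcript under 1 kb it was 0.54, 0.53, 0.55 and 0.11 in the same embryos, and for 3980 genes of 4 kb and over it was -0.29, -0.27, -0.33 and -0.09. The untreated libraries that stood apart followed the same order, with a median log2 ratio of Het1 to WT1 of 0.68 for other genes under 1 kb and 0.91 for members under 1 kb, and of KO3 to the mean of KO1 and KO2 of 0.75 and 1.17. The medians of members and of other short genes with doxorubicin were thus close to each other in WT1, KO1 and KO2, and the part that transcript length has in the members' increase was not tested. Among the members themselves the relation to length was weak, with Spearman's rho between -0.156 and -0.262 across 77 members in the 4 embryos.

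The 5 largest increases in WT1, KO1 and KO2 were, besides Rpl3l, whose controls there had at most 2 counts, those of Rpl23a, Rps28, Rpl41 and Rps24. Rpl23a sits at the tunnel exit where nascent chains leave the ribosome. It was at 2.47, 2.90 and 2.82 CPM in the WT1, KO1 and KO2 controls and at 7.47, 6.39 and 7.76 CPM with doxorubicin. These controls held 49, 56 and 50 counts of Rpl23a, which shares 94.4% of its coding stretches with other genes. The log2 fold change was 1.44 (standard error 0.189, edgeR FDR 6.5e-05), and Het1 went from 5.49 to 5.80 CPM. Rps28, of the small subunit head, shares all of its coding stretches with other genes. It was at 34.6, 29.5 and 39.9 CPM in the controls and 73.8, 69.7 and 81.1 CPM with the drug. Its log2 fold change was 1.15 (standard error 0.127, edgeR FDR 1.9e-05), and in Het1 the level was also higher, 117 against 73.0 CPM. In both genes the treated libraries of WT1, KO1 and KO2 lay above their controls without overlap.
Rpl41 went from 473, 393 and 503 CPM to 897, 859 and 992 CPM in WT1, KO1 and KO2 (log2 fold change 1.04, standard error 0.128, edgeR FDR 4.1e-05). Rps24 went from 250, 250 and 265 CPM to 546, 444 and 527 CPM (log2 fold change 1.02, standard error 0.113, edgeR FDR 1.9e-05). The KO3 control, at 1696 CPM for Rpl41 and 1319 CPM for Rps24, was above all of these treated libraries.

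The stalk proteins were higher with the drug in all 4 embryos. Rplp0 anchors the stalk on the large subunit and Rplp1 and Rplp2 form its arms. Rplp0 was at 1075, 1204, 984, 1135 and 1517 CPM in the WT1, Het1, KO1, KO2 and KO3 controls and at 1920, 1629, 1656 and 1988 CPM in WT1, Het1, KO1 and KO2 with doxorubicin. All 4 treated libraries were above all 5 controls. Rplp2 was at 98.9, 118, 96.7, 93.7 and 152 CPM in the controls and at 161, 167, 158 and 166 CPM with the drug, again without overlap. Over the 9 libraries the log2 change of Rplp0 was 0.65 (standard error 0.233, edgeR FDR 0.0407), that of Rplp1 0.58 (edgeR FDR 0.108) and that of Rplp2 0.59 (edgeR FDR 0.0227), which miss the threshold of 0.01. In WT1, KO1 and KO2 all 3 rose, by 0.84, 0.85 and 0.78 on the log2 scale (edgeR FDR between 1.9e-05 and 0.000196). In Het1 the ratios were 0.52, 0.62 and 0.58, and their difference from the other embryos did not pass (edgeR FDR between 0.153 and 0.319).

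The partners of the 5S particle differed from each other. Rpl11 was at 10.6, 11.8 and 11.1 CPM in the WT1, KO1 and KO2 controls and at 14.6, 16.0 and 15.7 CPM with doxorubicin, a rise of 0.50 on the log2 scale (standard error 0.123, edgeR FDR 0.00392). Rpl5 was at 7.25, 7.55 and 6.88 CPM in these controls and at 5.48, 5.35 and 5.83 CPM with the drug. The treated Rpl5 libraries lay below the controls without overlap, Het1 with 11.0 and 4.71 CPM included, but the difference, -0.34 on the log2 scale (standard error 0.158, edgeR FDR 0.0729), did not pass, nor did that over 9 libraries, -0.81 (edgeR FDR 0.0552). Rpl5 shares all, and Rpl11 87.3%, of its coding stretches with other genes.

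Of the 4 X-linked members, Rpl39 rose in WT1, KO1 and KO2, by 0.80 on the log2 scale (standard error 0.0984, edgeR FDR 4.1e-05). Its levels were 64.1, 69.8 and 74.5 CPM in the controls and 123, 111 and 119 CPM with the drug. Rps4x, of the small subunit, had a log2 fold change of 0.32 (edgeR FDR 0.0224), Rpl10, at the interface of the subunits, of -0.15 (edgeR FDR 0.306) and Rpl36a of -0.12 (edgeR FDR 0.564), none of which passed. KO1 and KO3 expressed the Y-linked Ddx3y, at 119 and 82.7 CPM, while it had at most 2 counts in the WT1, Het1 and KO2 controls. Rps4x was at 337, 315, 327, 354 and 399 CPM in the WT1, Het1, KO1, KO2 and KO3 controls, an order that did not follow Ddx3y. Rpl39l, an autosomal copy of Rpl39 known from testis, was at 1.66, 4.95, 3.98, 2.09 and 7.80 CPM in the controls and at 1.20, 2.33, 2.59 and 1.24 CPM in WT1, Het1, KO1 and KO2 with doxorubicin. It was lower in 4 of 4 embryos with overlapping groups (log2 fold change -1.02 over 9 libraries, edgeR FDR 0.0838).

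Several members with functions beyond the ribosome gave different pictures. Rpsa, also known as the laminin receptor precursor, rose in WT1, KO1 and KO2 from 397, 364 and 421 CPM to 671, 590 and 679 CPM (log2 fold change 0.75, standard error 0.112, edgeR FDR 0.000156). Rps6, the substrate of S6 kinase, was at 16.7, 17.2 and 13.7 CPM and then at 20.7, 17.5 and 19.0 CPM (log2 fold change 0.30, edgeR FDR 0.058). Rps27a, made as a fusion with ubiquitin, had a log2 fold change of 0.21 (edgeR FDR 0.156), with 15.7, 19.1 and 15.9 CPM before and 18.1, 20.6 and 18.4 CPM after the drug. Of these, Rpsa alone passed the threshold.
Fau, a ribosomal protein joined to a ubiquitin-like protein and no member by symbol, also rose in these embryos, by 0.52 on the log2 scale (standard error 0.108, edgeR FDR 0.00138), but did not pass over 9 libraries, at 0.21 (edgeR FDR 0.48).

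Paralogue pairs were set side by side within the same libraries, but they differ in shared sequence. Rps27 shares 100% of its coding stretches with other genes and Rps27l 0%. The shares are 0% for Rpl22, 32.3% for Rpl22l1, 80.5% for Rpl3 and 0% for Rpl3l. Rps27 had 26, 21 and 20 counts in the WT1, KO1 and KO2 controls and 34, 36 and 47 with doxorubicin. What part this has in their levels and ratios was not tested. Rps27 was at 1.31, 1.09 and 1.13 CPM in the WT1, KO1 and KO2 controls and 1.69, 1.98 and 2.16 CPM with doxorubicin (log2 fold change 0.76, edgeR FDR 0.023), while Rps27l, a paralogue known as a p53 target, was at 183, 180 and 190 CPM and 246, 243 and 250 CPM (log2 fold change 0.46, edgeR FDR 0.000922). In the Het1 and KO3 controls Rps27l stood at 982 and 1292 CPM, and over 9 libraries its log2 fold change was -0.70 (edgeR FDR 0.39). Of 15 other p53 targets, 1 rose and 6 fell in the fit of WT1, KO1 and KO2, with a median log2 fold change of -0.11. Of all genes in that fit, 35.4% rose and 32.4% fell. Rpl22 rose from 256, 237 and 262 CPM to 348, 297 and 342 CPM (log2 fold change 0.42, standard error 0.104, edgeR FDR 0.00391), whereas Rpl22l1, its paralogue, was at 39.4, 41.9 and 46.5 CPM and then at 41.5, 37.2 and 34.1 CPM (log2 fold change -0.15, edgeR FDR 0.258). Rpl3 was at 157, 145 and 157 CPM and then at 144, 141 and 137 CPM, a log2 fold change of -0.08 (edgeR FDR 0.386), while its paralogue Rpl3l appeared at low level as given above. Rps27l and Rpl22 therefore rose in these embryos and Rpl3 and Rpl22l1 did not pass.

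The members' ratios in Het1 lay below those in WT1, KO1 and KO2. The median log2 ratio in Het1 was -0.05, with 38 of 77 above 0, against 68, 69 and 67 of 77 in WT1, KO1 and KO2. In an embryo-block fit with a term for doxorubicin in Het1, 27 members responded less in Het1 (35.1% of members, against 7.12% of all genes) and none responded more (against 7.55% of all genes), by edgeR at an FDR under 0.01, with 54 at an unadjusted p under 0.05 (against 39.6% of all genes). DESeq2 gave 17 less and 0 more, against 3.2% and 6.62% of all genes. Het1 has 1 library in each treatment and its own terms in this fit, so the error comes from WT1, KO1 and KO2 alone and holds for Het1 only if it varies as they do. The median difference was -0.586 over the members and -0.0802 over all genes. It was -0.513 over 20 other genes with TOP mRNAs and -0.656 over 6 ribosomal protein paralogues outside the 79. Mitochondrial ribosomal proteins had a median of -0.396, translation factors of -0.163 and ribosome biogenesis factors of 0.195. A lower response in Het1 was thus not particular to the members. Rpl23a, Rps24, Rps12 and Rps25 were among the largest differences. Rps25 went from 78.3, 79.3 and 81.5 CPM to 131, 111 and 133 CPM in these embryos, and from 241 to 188 CPM in Het1 (difference -0.97, standard error 0.156, edgeR FDR 0.000412). For Rps25 the treated libraries of the 4 embryos lay closer together than their controls. Since Het is 1 embryo, its genotype and the state of its culture cannot be told apart, and KO3 has no distinct treated library.

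The same question asked in KO alone, 3 control against 2 treated libraries, gave no member past the threshold by edgeR, against 8.06% of all genes as higher and 4.76% as lower, or by DESeq2, against 15.9% and 14.7%. Rpl3l was the 1 member with an unadjusted p under 0.05 by edgeR, and the median log2 fold change was 0.03, which turned to -0.08 without TMM factors. Without the KO3 control, 32 members rose (against 29.1% of all genes) and none fell (against 26.2%), and the median was 0.55. With KO1 and KO2 as blocks, 52 rose (against 36.3% of all genes) and none fell (against 33.7%).

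Between genotypes, no member passed the test. In control, 76 members were tested between the WT embryo and the 3 KO embryos and none passed by edgeR or DESeq2, nor had any an unadjusted p under 0.05, and 0% of all genes passed in either direction. The median over the members, KO relative to WT, was 0.56, with 73 members above 0, but it was 0.01 without KO3. With doxorubicin, none of 77 members passed by edgeR, where 0.118% of all genes passed as higher in KO and 0.0787% as lower, or by DESeq2, where it was 0.0131% and 0.0197%, and the median was -0.04 (0.01 without TMM factors). The 1 member with an unadjusted p under 0.05 was Rpl15, of the large subunit, which lies on chromosome 14 from 18267823 to 18271391 (minus strand). Rpl15 was at 46.1 CPM in WT1, 70.5 CPM in Het1 and 77.0, 57.2 and 85.0 CPM in KO1, KO2 and KO3 in control, and at 41.9, 51.9, 65.9 and 58.3 CPM in WT1, Het1, KO1 and KO2 with doxorubicin. The WT1 library was the lowest of its treatment in both, and on the log2 scale KO exceeded WT by 0.57 with doxorubicin (standard error 0.201, edgeR FDR 0.656) and 0.70 in control (standard error 0.385, edgeR FDR 1). Rps24, the other named member on this chromosome, differed by -0.17 with doxorubicin (standard error 0.261, edgeR FDR 1). WT had 1 library in each treatment, so that only KO libraries inform the error of these tests.

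For the difference of the doxorubicin response between WT and KO, none of 77 members passed (edgeR and DESeq2, 0 with an unadjusted p under 0.05), and again 0% of all genes passed in either direction. The median of the difference was -0.49 with KO3 in the fit and -0.04 in the fit with embryo as a block, which has no KO3.

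Other parts of the translation machinery are given by counts, to be read against the 21.9% of all genes that rose and 20.2% that fell over the 9 libraries, and 35.4% and 32.4% in WT1, KO1 and KO2. Of 84 factors of ribosome biogenesis, which process ribosomal RNA and assemble the subunits, 42 fell and 3 rose over the 9 libraries, with a median log2 fold change of -0.70. In WT1, KO1 and KO2 it was 55 and 7, with a median of -0.77. Of 77 mitochondrial ribosomal proteins 21 fell and 2 rose over the 9 libraries (median -0.31), and 25 fell and 17 rose in WT1, KO1 and KO2 (median -0.16), where the 32.5% that fell is the share of all genes. Their principal transcripts have a median of 1220 bases, against 729 for the members, and 26 of them lie under 1 kb. Translation factors were taken by symbol, as Eif or Eef with a number, which takes in regulators such as Eif4ebp1. Of 59 tested, 19 fell and 5 rose over the 9 libraries, and 29 fell and 10 rose in WT1, KO1 and KO2. Of 20 other genes with TOP mRNAs, 5 fell and none rose over the 9 libraries, and 6 fell and 4 rose in WT1, KO1 and KO2 (medians 0.06 and 0.04), with the 25% and 30% that fell near the shares of all genes.
Among 11 regulators of TOP translation, 4 fell and 2 rose over the 9 libraries. Larp1, which binds the TOP tract, was at 239, 122, 208, 238 and 122 CPM in the WT1, Het1, KO1, KO2 and KO3 controls and at 82.9, 58.8, 84.0 and 83.7 CPM in WT1, Het1, KO1 and KO2 with the drug. The groups did not overlap and the log2 fold change was -1.18 (standard error 0.212, edgeR FDR 0.00168). Rpl7l1, a nucleolar relative of Rpl7 outside the 79, was at 101 to 121 CPM in the controls and at 23.5 to 32.0 CPM with doxorubicin, also without overlap (log2 fold change -1.85, standard error 0.134, edgeR FDR 2.39e-05). The lists differ in transcript length, with a median of 2750 bases for the biogenesis factors, and the part of length in their difference was not tested.

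**Figure D4:**
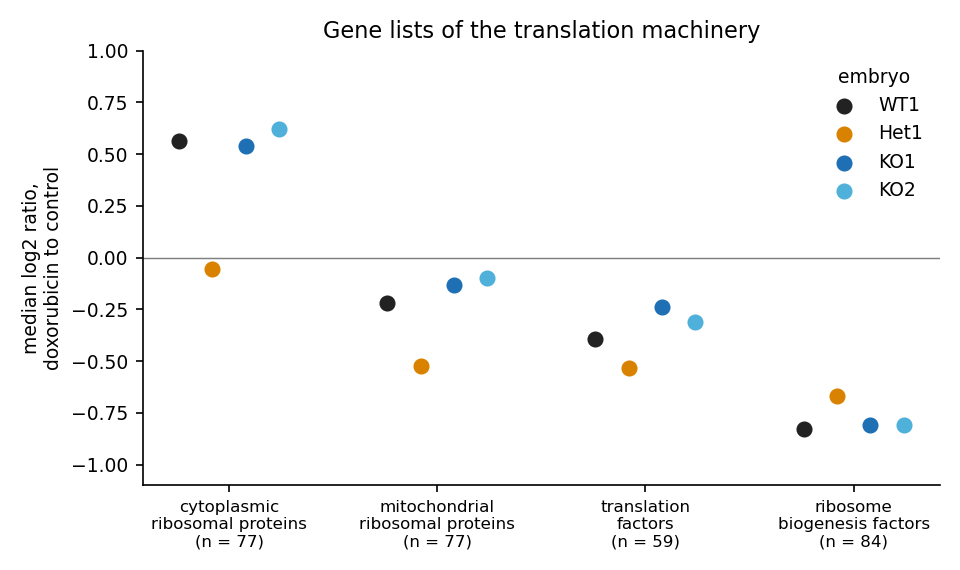
Median log2 ratio of doxorubicin to control over 4 gene lists, 1 point per embryo. The ribosomal proteins lie between 0.54 and 0.62 in WT1, KO1 and KO2 and at -0.05 in Het1, the mitochondrial ribosomal proteins between -0.52 and -0.10, the translation factors between -0.53 and -0.24, and the biogenesis factors between -0.83 and -0.67 in all 4 embryos.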

How the data were processed

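RNA-Seq libraries were made from RNA depleted of ribosomal RNA and enriched for mRNA with a stranded kit, and sequenced as single reads of 150 bases. The authors merged 4 FASTQ files per library, aligned reads to mm10 with HISAT2 (the sources used here name different versions), assigned them to genes of the iGenomes annotation with HTSeq (union mode), and deposited raw counts for 24062 genes, without normalization. The strand setting is not given in the sources used here, so overlapping and antisense genes are uncertain, as are genes with near-identical copies.

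Tests used edgeR 4.0.16 in R 4.3.3 (TMM factors, filterByExpr, glmQLFit and glmQLFTest, two-sided, Benjamini-Hochberg adjustment over all genes tested, FDR under 0.01) and, as an alternative, DESeq2 1.42.0. Doxorubicin was compared with control over 9 libraries with genotype as a covariate. KO was compared with WT within each treatment, without Het. Ratios of single libraries used log2 CPM with a prior count of 2. With these totals 3 counts are 0.123 to 0.169 CPM, which covers counting error only. The fits of doxorubicin against control, over the 9 libraries and with the block but no KO3, and of KO against WT were run on simulated data. Apart from the changed genes, the simulated libraries had equal means, so the differences of the Het1 and KO3 cultures were not covered.

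Labels give cultures the same number in both treatments, and these numbers were taken as embryos and used as blocks. As a check, the difference of KO1 and KO2 in control was correlated with that under doxorubicin over 14883 genes (Pearson r 0.384). With KO3 in place of KO2 r was 0.232. The treated library that KO2 and KO3 share had 0 counts of Ddx3y, as had the KO2 control, while the KO3 control had 1834, and was taken as KO2. Cultures came from separate embryos per the study, while WT and Het are 1 embryo each, so p-values measure the spread between these few cultures.

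Members and lists were chosen with earlier results of these data known. Named are all members past the threshold or, beyond 5 a direction, the 5 with the largest change, the 3 highest and lowest per kilobase, and fixed subgroups and pairs, of which a few genes are not reported here. Rps4l was left out as a pseudogene (GENCODE M21, GRCm38). Transcript lengths of other genes and of the lists are those of the shortest GENCODE principal transcript. Levels per kilobase and length classes of the members used the shortest protein-coding transcript with the principal coding sequence. By either rule 59 tested members lay under 1 kb.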

Additional observations from a re-analysis of the deposited data

Results flagged for a closer look

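The response to doxorubicin was compared between Het1 and the other paired embryos by a test of the difference itself (edgeR, embryo block with a term for doxorubicin in Het1, 8 libraries). Het1 is 1 library in each treatment, and the spread in this test comes from WT1, KO1 and KO2 alone. A difference passed for 27 of the 77 members tested, all of which responded less in Het1, and the median of the difference over the members was -0.586 on the log2 scale, against -0.0802 over all 14735 genes in the fit. Without TMM factors these were 40 members and -0.732, with -0.225 over all genes. In other genes with a transcript under 1 kb the median log2 ratio was 0.114 in Het1 and 0.531 to 0.549 in the other embryos, and in members under 1 kb 0.0255 and 0.54 to 0.6, and these gaps were not compared by a test. The median difference was also negative over other genes with TOP mRNAs (-0.513) and over mitochondrial ribosomal proteins (-0.396), and positive over ribosome biogenesis factors (0.195). Groups had at most 3 distinct libraries of a genotype and treatment, too few for a test of single outlying libraries.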

How the results depend on the processing

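Over the 9 libraries the count of members higher with doxorubicin was 1, and it was 6 at an FDR under 0.05, 6 by DESeq2, 4 with upper-quartile factors, 0 without TMM factors, 28 with embryo as a replicate block, 0 with the block and the shared library taken as KO3, 51 without the Het and KO3 cultures and 56 with the block in addition. Members lower were 0, and 1 at an FDR under 0.05, by DESeq2 and in either replicate block with Het1. The median of 0.169 became 0.57 without the Het and KO3 cultures and 0.569 with the block in addition. With 1 library left out the counts lay between 0 and 27 higher and 0 and 1 lower and the median between 0.0274 and 0.425, with 27 without the KO3 control. Rpl3l missed the threshold without TMM factors and in the block with KO3.

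In KO, members higher were 0, and 52 with the replicate block, and 0 to 32 with 1 library left out. The median of 0.0308 was 0.548 with the block, -0.0784 without TMM factors and -0.181 to 0.549 with 1 library left out. The median difference between the genotypes' responses of -0.488 was -0.0432 with the replicate block and -0.687 to -0.042 with 1 library left out.

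The alternatives of the fit of WT1, KO1 and KO2 and of the Het1 term were chosen after the data were seen. In the former, increases lay between 49 and 60 over tools, scalings and filters and, with 1 library left out, between 32 (without either WT1 library) and 49, and members lower were 1 at an FDR under 0.05. The median lay between 0.503 and 0.588 with 1 library left out and was 0.762 without TMM factors, 0.789 with upper-quartile factors and 0.492 with every gene of at least 1 count, where that of all genes was 0.23, 0.26 and 0.351. Members lower in the Het1 term were 17 by DESeq2 and 27 to 40 otherwise. Upper-quartile factors moved the median of all genes over 9 libraries from -0.0177 to 0.144. Depth limits Rpl3l, Rpl30, Rpl29, Rpl17 and Rps27 among others, and whether reads shared with pseudogenes moved with a group was not tested.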
